A study of Mus musculus with 15 samples.

Results

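Sfrp2 and Sfrp4 encode secreted Wnt antagonists, and they were described here in 15 single Tomato+ cells of mouse inguinal white fat. The members are the 2 rows with these symbols, of 8446 rows in all. The cells came from adult C57BL/6 mice of the genotype Prrx1-CreERT;Tomato, in which tamoxifen lets a Cre recombinase driven by Prrx1 switch on the Tomato reporter. Prrx1 is a homeobox gene of the mesenchyme. The reporter marks cells in which this driver was active during the injections, and their descendants. Each mouse was given tamoxifen at 2 mg per 30 g once a day for 3 days. Tissue was digested with collagenase, Tomato+ cells were sorted, and single cells were picked under a fluorescence microscope. All 15 cells carry the same labels and form 1 group with no control, and no animal is named. Cells are therefore described 1 by 1, and no p-value is given.

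Wnt ligands are secreted, lipid-modified proteins that bind Frizzled receptors and, through beta-catenin, restrain the differentiation of fat precursors. Secreted Frizzled-related proteins carry a cysteine-rich domain like that of the Frizzled receptors, followed by a netrin-like domain, and bind Wnt ligands outside the cell. Sfrp2 is also known for its action on procollagen processing, and Sfrp4 is known from skin, bone and fat stroma.

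Values are log2(FPKM + 1) unless another scale is named, where FPKM scales fragments to transcript length and library size. The threshold of detection was 1 FPKM, which is also 1 on the log2 scale. The authors had brought all cells to a common distribution, so 4369 rows reach 1 FPKM in each cell and a value mainly tells the rank of a gene within its cell. Read depth is unknown. The stromal marker Col3a1 was at 7.40 or more in each cell, whereas Prrx1, the driver gene of the label, was below 1 FPKM in cells 3 (0.68), 12 (0.22) and 13 (0.43). Cells 5 and 13 stood apart by some mural genes, which mark pericytes and smooth muscle. Higd1b was at 10.98 and 10.68 there and did not pass 3.84 elsewhere. Rgs5 (10.18 and 6.90) and Kcnj8 (6.53 and 9.43) were also highest there. In cell 13, however, Acta2 was at 0.45 and Abcc9 at 1.68, and cells other than cell 5 were higher for both, such as cell 12 for Acta2 (5.23) and cell 15 for Abcc9 (4.42). The mean of the cell cycle list was highest in cell 13 (9.25), which was at the bottom for both members.

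Both genes are on plus strands. Sfrp2 (ENSMUSG00000027996) lies on chromosome 3 from 83766321 to 83774316 in GRCm38 and has 3 exons, a transcript of 2003 nt and 295 codons. Sfrp4 (ENSMUSG00000021319) lies on chromosome 13 from 19623104 to 19632994 and has 5 exons, a transcript of 4049 nt and 365 codons in the coding transcript used.

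Over the whole coding sequences of the pair, 514 of 800 aligned positions were identical (64.2%), with gaps allowed. The longest run of bases common to the 2 transcripts was 11 nt, so a read longer than that has no exact match in both transcripts. Sfrp1, the other family member with a row, had a longest common run of 17 nt with Sfrp2 and 14 nt with Sfrp4. On the opposite strand the noncoding gene Gm26771 overlaps the last 464 bases of the Sfrp2 gene, on the side that a 3' kit reads. It has no row in the table used, and whether the counting used strand is not given in the sources used here, so reads of this overlap cannot be told apart. No annotated gene overlaps Sfrp4.

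Sfrp4 was detected in nearly every cell, and Sfrp2 in about as many cells as not. Sfrp4 reached 1 FPKM in 14 of 15 cells (93.3%, exact binomial 95% interval 68.1% to 99.8%), with a median of 3.17 or 7.99 FPKM. Sfrp2 reached 1 FPKM in 8 of 15 cells (53.3%, interval 26.6% to 78.7%), and its median was 1.22 or 1.33 FPKM. These intervals cover counting error only. For comparison, 46.8% of all rows were detected in 8 or more cells. Sfrp4 ranked at place 2434 and Sfrp2 at place 3699 among the 8446 rows by median.

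Sfrp2 was concentrated in 4 cells. Cell 2 was at 10.19, followed by cell 11 at 5.54, cell 1 at 5.38 and cell 7 at 4.31. In cell 2 that is 1170 FPKM, within the top 2% of the rows of the cell, and this cell alone held 91.1% of the Sfrp2 FPKM summed over all cells. Cells 6 (2.19), 4 (1.43), 3 (1.31) and 9 (1.22) were not far above the threshold. The other 7 cells were at 0.54 (cell 10), 0.41 (cell 12), 0.30 (cell 8), 0.27 (cell 14), 0.19 (cell 5) and 0 (cells 13 and 15). Between the fourth cell (4.31) and the next (2.19) the values drop by more than 2 on the log2 scale, and at 5 FPKM or more these 4 cells alone remained. Sfrp4 reached 5 FPKM in 8 cells, as 32.6% of all rows did in 8 or more cells.

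Sfrp4 spread more evenly below 2 very high cells. Cell 11 was at 10.34 (1290 FPKM) and cell 2 at 10.10 (1100 FPKM), both within the top 2% of the rows of their cell, and together they held 86.6% of the summed FPKM. Cells 1 (6.99), 8 (6.44), 5 (5.83), 7 (5.54) and 4 (4.93) followed, then cell 6 (3.17). Cells 15 (2.54), 3 (2.35), 10 (2.20), 14 (1.77), 9 (1.31) and 12 (1.13) were low but above 1 FPKM, and cell 13 was at 0.13. With 1 library per cell there is no error within a cell by which to separate neighbours in this order.

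**Figure D1:**
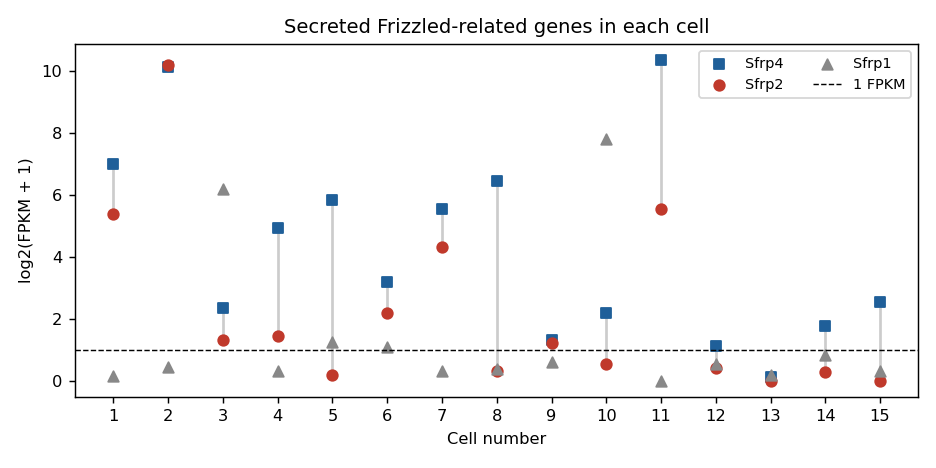
Level of Sfrp4 (blue squares), Sfrp2 (red circles) and Sfrp1 (grey triangles) as log2(FPKM + 1) in each of the 15 cells, with a grey line joining Sfrp2 and Sfrp4 of a cell and a dashed line at 1 FPKM. Sfrp4 lies above Sfrp2 in 14 cells, and Sfrp1 is high in cells 3 and 10 only, at 6.18 and 7.78.

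Every cell with Sfrp2 also had Sfrp4. Both were detected in 8 cells, Sfrp4 without Sfrp2 in 6 cells, Sfrp2 without Sfrp4 in 0 cells and neither in cell 13. Sfrp4 was under 1 FPKM in cell 13 only, so Sfrp2 without Sfrp4 could have been seen in no other cell. The count of 0 thus says little about the pair beyond the number of cells that detected each gene. Sfrp4 was the higher of the pair in 14 of 15 cells. The exception was cell 2, where Sfrp4 was at 10.10 and Sfrp2 at 10.19. Differences of this size also stand among the 14: cell 9 had a difference of 0.09, and cell 13, where neither gene was detected, of 0.13. The difference of Sfrp4 minus Sfrp2 had a median of 1.51 on the log2 scale (SD 2.02 over 15 cells) and was widest in cells 8 (6.14), 5 (5.65), 11 and 4 (3.51). In cells 5 and 8 Sfrp4 was thus high while Sfrp2 was below 1 FPKM. Sfrp4 has the longer transcript, and division by length lowers long transcripts although reads of a 3' kit come from 1 end. With the length multiplied back the median difference was 2.64, and Sfrp4 was higher in all 15 cells.

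The levels of the pair went together from cell to cell. Spearman's rho was 0.651 and Pearson's r 0.784 over 15 cells, with values under 1 FPKM tied for rho. Leaving out 1 cell at a time gave a rho of 0.566 (without cell 1) to 0.757 (without cell 5). Without cells 2 and 11, the farthest from the Sfrp2 median, rho was 0.454 and r was 0.554. Cells 1, 11 and 14 had the most rows at their lowest value, and rho without them was 0.433, so the size of the relation rests in part on these cells. Over the 8 cells that detected both genes rho was 0.952, but this choice of cells leaves out cells 5 and 8, which had high Sfrp4 without Sfrp2. The points share a library per cell, the common distribution and an unknown number of animals, and the coefficients describe these cells. The number of rows at a cell's lowest value, a measure of how many genes a library missed, had a rho of 0 with Sfrp2 and −0.043 with Sfrp4.

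**Figure D2:**
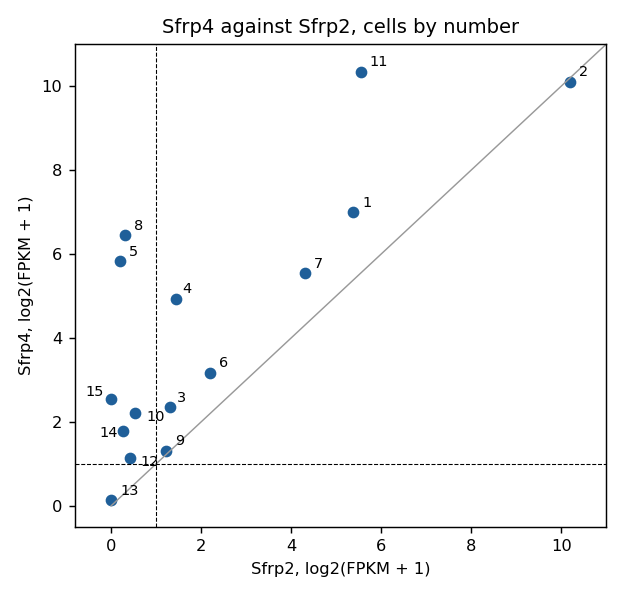
Sfrp4 against Sfrp2, both as log2(FPKM + 1), for the 15 cells labelled by number, with dashed lines at 1 FPKM and a grey line of equal values. Cells 1, 2, 7 and 11 are high for both genes, and cells 5 and 8 are high for Sfrp4 with Sfrp2 at 0.19 and 0.30.

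Sfrp1 did not follow the pair. It passed 1 FPKM in 4 of 15 cells (26.7%, interval 7.79% to 55.1%) and was high in cell 10 (7.78, 219 FPKM) and cell 3 (6.18, 71.6 FPKM), with 1.26 in cell 5 and 1.08 in cell 6. These cells had Sfrp2 at 2.19 or less. Its rho was −0.184 with Sfrp2 and −0.101 with Sfrp4, which are weak. In cells 1, 2, 7 and 11 Sfrp1 was at 0.44 or less. Frzb and Sfrp5, the rest of the family, were not analysed here.

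The wider Wnt pathway was covered in part. Of 126 distinct genes in 6 lists (Frizzled-related proteins, other antagonists, ligands and their secretion, receptors with R-spondins, signal transduction, and targets) 58 had a row, and 23 of these were detected in 8 or more cells (39.7%, against 46.8% of all rows). Among the 8 other antagonists with a row, Igfbp4, an IGF-binding protein that also binds Wnt receptors, was the broad one, detected in all 15 cells with a median of 6.46. Cxxc5, which binds Dishevelled, was detected in 7 cells, and Ctnnbip1, which blocks beta-catenin, and Tpbg, a membrane inhibitor of Wnt reception, in 6 each. Axin1, a scaffold of the destruction complex, was detected in 0 cells, with a highest value of 0.84. The mean of these 8 genes had a rho of 0.617 with Sfrp2 and 0.396 with Sfrp4, and of 0.429 and 0.126 without cells 1, 11 and 14. Gene by gene the relation was weaker. Over the 5 of them detected in 5 or more cells, the median rho was 0.11 with Sfrp2 and 0.056 with Sfrp4.

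Few ligands were seen beside these antagonists. Wnt5a, a ligand of the noncanonical branch, was detected in 6 cells, with its top values in cells 10 (7.15) and 2 (4.02). Wnt11 was detected in 3 cells, highest in cell 4 (6.26). Wnt2 and the ligand acyltransferase Porcn were detected in 0 cells. Wls, the carrier that brings Wnt ligands to the surface, was detected in all 15 cells with a median of 6.01. Its lowest value was in cell 10 (1.26), the cell with the highest Wnt5a, and its highest was in cell 5 (8.09). The mean of the 5 ligand and secretion genes had a rho of 0.651 with Sfrp2 and 0.482 with Sfrp4.

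On the receiving side, 3 heparan sulphate proteoglycans were the broadest. Sdc2 was detected in 14 cells (median 6.86), Gpc3 in 14 (3.81) and Sdc4 in 13 (3.48), while Gpc6 was detected in 8, Sdc1 in 6 and Gpc4 in 5. Of the receptors proper, Ryk was detected in 9 cells, Lrp6 in 8, and Fzd1 and Fzd4 in 7 each (Lrp6, Fzd1, Fzd4, Gpc6, Sdc1 and Gpc4 were chosen after their values were seen). Fzd2 was detected in 1 cell (cell 9, 1.96), and the R-spondins Rspo3 and Rspo1, which amplify Wnt signals, in 1 cell (cell 3, 6.45) and 0 cells. Inside the cell, Ctnnb1, which encodes beta-catenin, was detected in all 15 cells (median 5.49), as was the GTPase Rhoa (5.89), while Rac1 was detected in 14 (5.88) and the kinase Camk2d in 13 (4.81). The mean of the 21 signal transduction genes had a rho of −0.181 with Sfrp2 and −0.389 with Sfrp4. Without cells 1, 11 and 14 these were −0.321 and −0.671.

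Of the list of Wnt targets, 9 genes had a row and 6 were detected in 5 or more cells. Myc, a growth regulator, was detected in all 15 cells and was highest in cell 9 (10.04) and cell 2 (9.11), of which the first was low for both members (1.22 and 1.31) and the second high. Twist1 and Cd44 were detected in 13 cells each (medians 4.24 and 3.93) and Wisp2 in 11, highest in cell 14 (8.44). Ccnd1 was detected in 0 cells. Of these 6 target genes, 0 had a rho of 0.5 or more with Sfrp2, where 3.89% of all 5839 genes did, and 0 did with Sfrp4, against 3.63%. With only 6 genes, a count of 0 cannot be told from these shares. Their median rho was 0.168 with Sfrp2 and 0.132 with Sfrp4, beside medians of −0.004 and 0.006 over all genes.

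Of 35 pathway genes detected in 5 or more cells, members left out, 1 reached a rho of 0.5 with Sfrp2 (2.86%, against 3.89% of all genes) and 3 with Sfrp4 (8.57%, against 3.63%). Wls had 0.568 with Sfrp2 and 0.689 with Sfrp4. Gpc3, a glypican that binds Wnt and Hedgehog ligands, had 0.718 with Sfrp4 and 0.361 with Sfrp2. It was highest in cells 8 (9.28), 11 (8.79) and 7 (8.43), but it was also high in cells 10 (8.17) and 3 (7.32), where both members were low. Gpc6, another glypican, had 0.504 with Sfrp4, and was chosen for its value. Among the other antagonists, transducers and targets no gene did, and no gene of the 6 lists was at −0.5 or less.

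**Figure D3:**
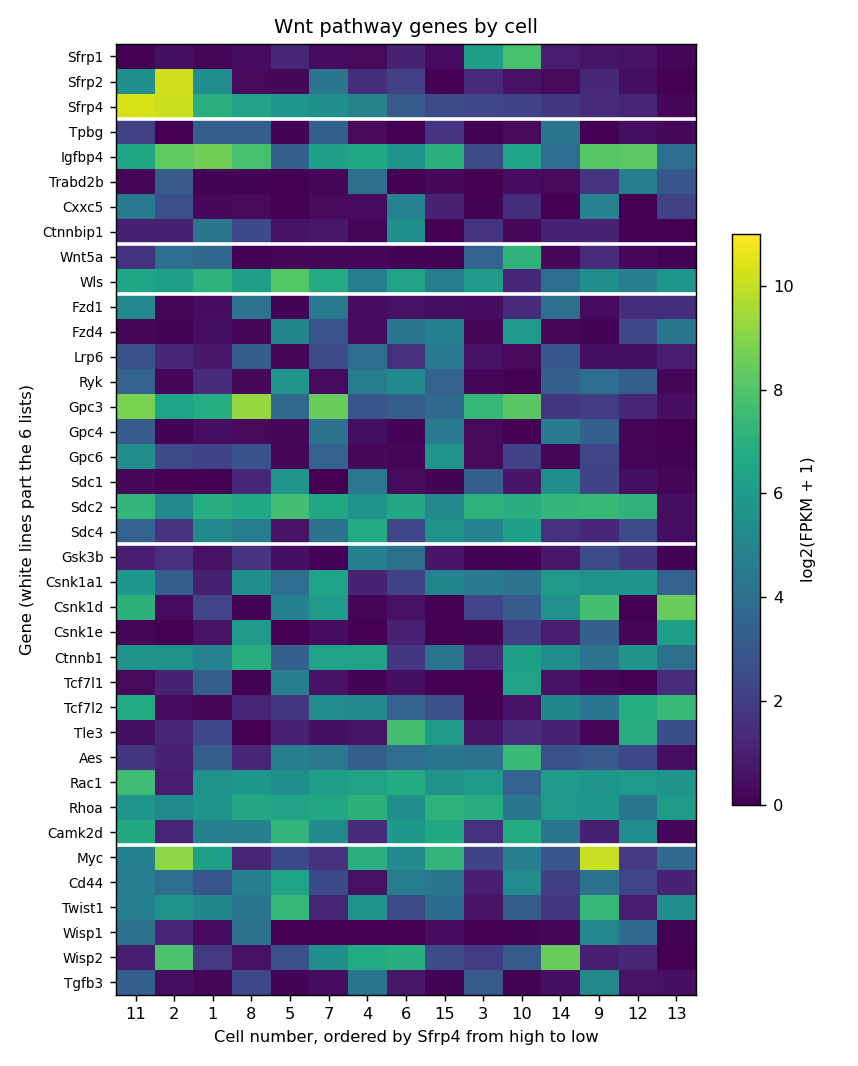
Heat map of log2(FPKM + 1) for the Wnt pathway genes detected in 5 or more cells, with Sfrp1 added, by list from the Frizzled-related proteins at the top to the targets at the bottom, and with cells ordered by Sfrp4. Wls, Ctnnb1 and Rhoa are above 1 FPKM in all 15 cells, while Sfrp2 is above 5 FPKM in cells 11, 2, 1 and 7 only.

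The 12 genes of procollagen processing with a row ranged in median from 3.87 (Loxl2 and Postn) to 11.64. Pcolce, the enhancer of procollagen cleavage, had the highest median, followed by Col3a1 (11.49), Col1a2 (10.64) and Col1a1 (7.85), and each was detected in all 15 cells. Col3a1 had a rho of 0.696 with Sfrp2 and 0.621 with Sfrp4, and Col1a2 of 0.568 and 0.529. Not every collagen did so: Col5a3, chosen after its values were seen, had −0.154 and −0.300. Bmp1, the procollagen protease on which Sfrp2 is known to act, was detected in 14 cells (median 5.03) and had a rho of 0.132 with Sfrp2 and 0.264 with Sfrp4. Of the 12 genes of the list, 2 reached a rho of 0.5 with Sfrp2 (3.89% of all genes did) and 3 with Sfrp4 (3.63%), the third being Fn1 (0.568). Without cells 1, 11 and 14 the relation to the mean of the list was smaller, at 0.321 in place of 0.508 for Sfrp2 and at 0.126 in place of 0.411 for Sfrp4.

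The Dpp4 progenitor list marks interstitial progenitors of fat. Of its 13 genes detected in 5 or more cells, 4 reached a rho of 0.5 with Sfrp2 (3.89% of all genes did) and 5 with Sfrp4 (3.63%), with medians of 0.410 and 0.396. They were Sema3c, Cd248 and Opcml for both, Ugdh for Sfrp2, and Fn1 and Tmem100 for Sfrp4. Dpp4 itself was at 7.93 in cell 1 and 6.87 in cell 7 but at 0.19 in cell 2, where both members were near their top, and its rho was 0.475 and 0.474. Pi16, a marker of the same stage, was detected in 4 cells, which were cells 2 (5.12), 1 (3.53), 7 (2.57) and 3 (2.01). All 4 also had Sfrp2 above 1 FPKM, whereas cell 11, with Sfrp2 at 5.54, had Pi16 at 0.28. The mean of the list was highest in cell 1 (6.03) and lowest in cell 13. It had a rho of 0.486 with Sfrp2 and 0.632 with Sfrp4, and of 0.310 and 0.476 without cells 1, 11 and 14.

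Of the stromal progenitor list, 5 of 14 genes reached 0.5 with Sfrp2 and 4 with Sfrp4. Over all genes these shares were 3.89% and 3.63%. The lists share genes, so their counts are not separate. Col3a1 and Col1a2, already counted with the procollagen genes, and Lum, also of the fibroblast list below, are in both counts. Cd248 and Fn1 likewise stand in more than 1 list. Cd34, a surface marker of fat progenitors, had 0.678 and 0.752, and stood at 10.54 in cell 2 and 10.15 in cell 1. Pdgfra, the receptor of fibroblastic progenitors, had a rho of 0.023 and −0.093. Of the dermal and universal fibroblast list, Lum and Cd248 reached 0.5 with both members, Mfap5 with Sfrp2 (0.651) and Col14a1 with Sfrp4 (0.561), and the dermal factor Twist2 had −0.041 and −0.318. Prrx1 had a rho of 0.223 with Sfrp2 and 0.563 with Sfrp4. Gdf10, a marker of Cd142 stromal cells, had 0.524 with Sfrp4 and 0.117 with Sfrp2, and was at 8.69 in cell 2 and 8.03 in cell 8. No other gene of the 10 in its list reached 0.5, and the medians of that list were −0.015 with Sfrp2 and 0.155 with Sfrp4.

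Among genes of later fat differentiation, Pparg, the master regulator of adipocytes, had a rho of −0.502 with Sfrp2 and −0.566 with Sfrp4. The other adipogenic transcription factors were mixed, from −0.422 (Srebf1) to 0.414 (Ebf2) with Sfrp2, and the medians over the 8 factors were −0.175 with Sfrp2 and 0.018 with Sfrp4. The mean of the 10 factors with a row, Pparg included, had a rho of −0.561 with Sfrp2 and −0.250 with Sfrp4. Without cells 1, 11 and 14 these were −0.732 and −0.280. Pparg was high in cells 13 (9.29), 14 (6.25), 6 (5.78) and 12 (5.50), where Sfrp2 was at 2.19 or less and Sfrp4 at 3.17 or less, and at 0.90 or less in cells 1, 2, 7 and 11. Other cells were off this pattern: cell 8 had Pparg at 4.19 and Sfrp4 at 6.44, and cells 9 and 10 had Pparg at 0 with Sfrp4 at 1.31 and 2.20. Of the 17 committed preadipocyte genes, 0 reached 0.5 with either member, while Pparg and Ptgs2 reached −0.5 with Sfrp2 (3.27% of all genes did) and Pparg did with Sfrp4 (3.2%). The medians were −0.310 and −0.189.

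All 13 immediate early genes, which respond within minutes to handling of cells, were in the comparison, and 6 were at −0.5 or less with Sfrp2 (3.27% of all genes were) and 2 with Sfrp4 (3.2%). Junb had −0.648 and −0.646 and was lowest in cells 1 (3.43) and 11 (3.84). The mean of the list had a rho of −0.621 with Sfrp2 and −0.468 with Sfrp4, and of −0.481 and −0.140 without cells 1, 11 and 14. All cells share 1 digestion protocol, and the part of handling in this relation was not tested. The mean of the mural list had a rho of −0.489 with Sfrp2 and −0.482 with Sfrp4, and ranged from 0.39 in cell 11 to 8.72 in cell 5, and its part in the relations above was not tested. Genes of a list were measured in the same 15 cells, so their counts are not independent of each other.

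**Figure D4:**
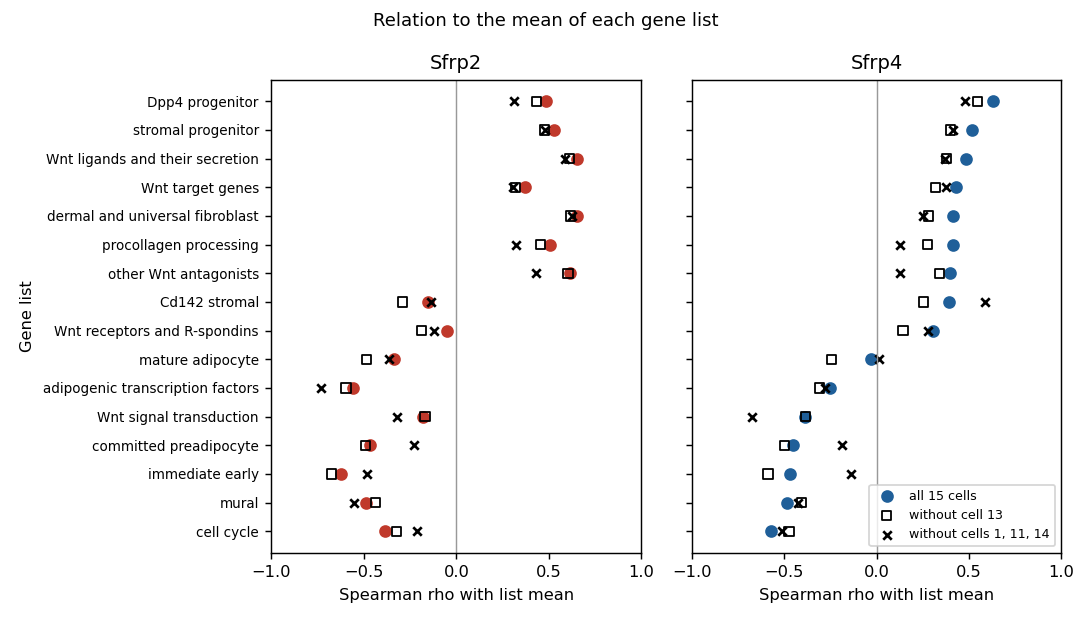
Spearman rho of Sfrp2 (left) and Sfrp4 (right) with the mean of each gene list over all 15 cells (filled circles), without cell 13 (open squares) and without cells 1, 11 and 14 (crosses). The Dpp4 progenitor and stromal progenitor lists lie to the right and the committed preadipocyte, immediate early, mural and cell cycle lists to the left for both genes, and most crosses lie nearer to 0.

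Over all genes detected in 5 or more cells, Cgref1 was the most like Sfrp2. Of 5839 genes, 227 had a rho of 0.5 or more with Sfrp2 and 191 of −0.5 or less, and for Sfrp4 the numbers were 212 and 187. The upper and lower tails were thus of nearly equal size, and single coefficients over 15 cells are to be read with that in view. Sfrp4 ranked at place 46 among the genes by rho with Sfrp2, and Sfrp2 at place 47 by rho with Sfrp4. These places depended on the measure and the cells: by Pearson's r both were at place 3, and without cells 1, 11 and 14 they were at 412 and 423. At 0.5 or more, 78 genes were common to both, which is 34.4% of those of Sfrp2 and 36.8% of those of Sfrp4. Over all genes the shares at 0.5 or more were 3.89% with Sfrp2 and 3.63% with Sfrp4. At −0.5 or less, 55 genes were common (28.8% and 29.4%). The pair itself had a rho of 0.651 over the same cells, so genes common to both are not a separate result.

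Cgref1, a secreted calcium-binding protein, had a rho of 0.901 with Sfrp2 (r 0.957). It was high in cells 2 (8.42), 7 (6.21), 1 (6.20) and 11 (5.73), and at 2.21 or less in the other 11 cells. The same 4 cells were the highest for both genes. Cgref1 was also among the 10 genes most like Sfrp4 (0.753), the 1 gene on both lists. The next genes for Sfrp2 included Qpct, the glutaminyl cyclase (0.855), Lrrc17, a secreted leucine-rich repeat protein (0.836), and the lysosomal enzyme gene Aga (0.824). Ric8, a chaperone of G proteins (0.796), Nucb2, the precursor of nesfatin (0.794), the coatomer gene Copz2 (0.783), Pbxip1 (0.778) and the kinase gene Prkd3 (0.777) followed. Copz2 was detected in all 15 cells and was highest in cell 2 (10.63). Ric8 was detected in 5 cells (1, 2, 6, 7 and 11) and Pbxip1 in 5 (1, 2, 3, 7 and 11). Both thus passed the filter mainly through the 4 cells high in Sfrp2. With values as deposited rather than tied, their rho with Sfrp2 was 0.724 and 0.527. Aga (8.72), Qpct (7.81) and Pbxip1 (5.68) were highest in cell 1, Lrrc17 (8.83) in cell 11, and Nucb2 (10.01) in cell 2.

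The genes lowest by rho with Sfrp2 were Kdm6a, a histone demethylase (−0.857), the transcription factor Elk4 (−0.801), the peroxisomal Acbd5 (−0.766), Ankrd40 (−0.764) and the DNA repair gene Xpc (−0.764). Kdm6a was at 8.39 in cell 10 and at 0.69 or less in cells 1, 2, 7 and 11. Its Pearson r was −0.431. Kdm6a was detected in 7 cells (5, 8, 10, 12, 13, 14 and 15), and Ankrd40 and Xpc in 6 each (5, 8, 10, 12, 13 and 15). Sfrp2 was below 1 FPKM in all of these cells, so these genes passed the filter only through cells where Sfrp2 was tied. With values as deposited, rho was −0.735 for Kdm6a, −0.776 for Ankrd40 and −0.644 for Xpc.

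For Sfrp4 the highest was Thbs3, a thrombospondin of the extracellular matrix (0.800), at 9.78 in cell 11, 9.75 in cell 8 and 9.56 in cell 2 and at 0.54 in cell 13. Apmap, a membrane protein of adipocytes, had 0.788, the lysosomal mannosidase gene Manba 0.770, Dnajc10, a reductase of the endoplasmic reticulum, 0.762, and Dcun1d5, of the neddylation pathway, 0.761. Ly6c2 (0.754), Sulf2 (0.753), Cd34 (0.752) and Plac9b (0.750) completed the 10, with Cgref1. Apmap was highest in cell 5 (7.35) and Manba in cell 1 (7.94). Manba was detected in 5 cells only (1, 2, 7, 8 and 11), all high in Sfrp4. With values as deposited rather than tied, its rho with Sfrp4 was 0.524. Sulf2 encodes an extracellular sulphatase that trims heparan sulphate and so alters Wnt binding at the cell surface. It was highest in cell 1, with 6.67 in cell 2, 5.93 in cell 11 and 5.00 in cell 5, with a rho of 0.663 with Sfrp2. The lowest were Agps, of ether lipid synthesis (−0.804), the mitochondrial carboxylase Pcca (−0.788), the mitochondrial chaperone Hspa9 (−0.756), the lactate dehydrogenase Ldha (−0.752) and Tbl3 (−0.744). Agps was detected in 5 cells only (3, 9, 12, 13 and 14), and so was Tbl3 (3, 10, 12, 13 and 14). Sfrp4 was at 2.35 or less in all of these cells, so both genes passed the filter only through cells low in Sfrp4. With values as deposited, rho with Sfrp4 was −0.654 for Agps and −0.750 for Tbl3. Ldha had −0.731 with Sfrp2 as well, and was highest in cell 13 (9.12) and cell 9 (8.99).

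Some of these rows are uncertain. Ly6c2 and Plac9b have near-identical copies, and Thbs3, Ric8 and Tbl3 overlap Mtx1, Bet1l and Noxo1 on the opposite strand, which also have rows. Without cells 1, 11 and 14, 3 of the 10 genes most like Sfrp2 and 1 of the 10 most like Sfrp4 stayed among the 10 highest. Of these genes, 7 and 9 were still detected in 5 or more cells, and each of those kept a rho of 0.5 or more.

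**Figure D5:**
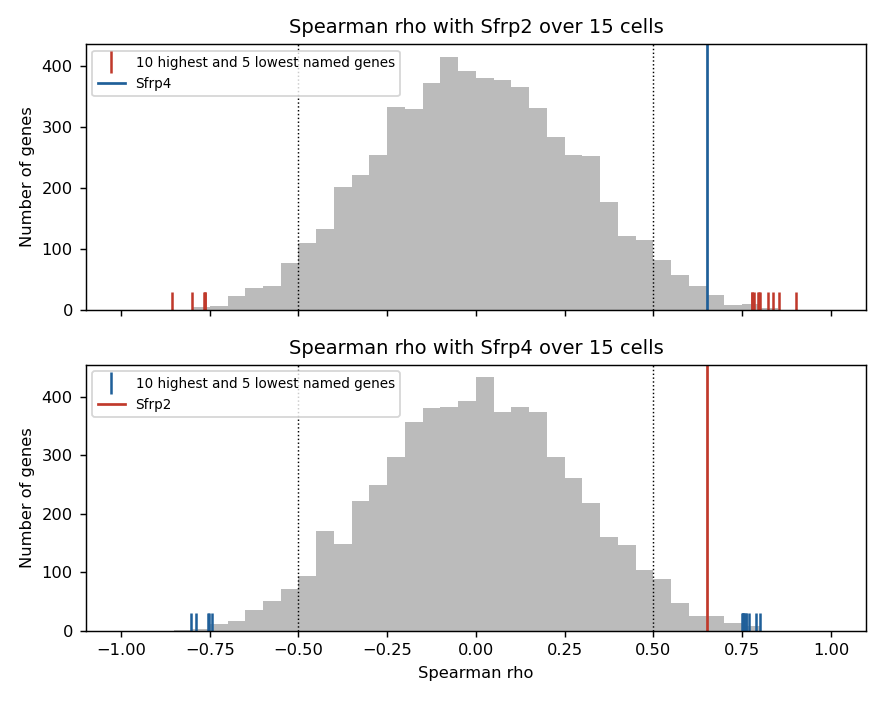
Number of genes by Spearman rho with Sfrp2 (top) and with Sfrp4 (bottom) over 15 cells, for genes detected in 5 or more cells, with dotted lines at −0.5 and 0.5, short ticks for the named genes and a coloured line for the other member. Both histograms centre near 0, and the other member lies at 0.651, inside the upper tail and short of the 10 highest.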

How the data were processed

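Single-cell libraries of 15 cells were made with a 3' kit. TopHat2, Cufflinks and the build GRCm38 are named, without versions, per the submitters' processing notes. How strand was used and how rows were filtered is not stated there. The table is named as FPKM, but the authors' deposited values are log2 values: read as log2(FPKM + 1) they sum to a mean of 592948 FPKM per cell, and read as natural logarithms to 12675749. The base is thus inferred. Sorted columns differed by at most 0.0354 above 0.2, so the deposited log2 values had been quantile-normalized over cells. Columns were tied to cells by the number in the sample title, and 18 empty columns were left out. Of 8446 rows 8431 matched a GENCODE M21 identifier.

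Spearman coefficients were computed over cells, with values under 1 FPKM tied, for genes detected in 5 or more cells, using Python 3.11.15, scipy 1.17.1 and Biopython 1.88. The ranking was tested on simulated data. Members and the 22 gene lists were chosen with earlier results of these data known. Genes named were the members, the 10 highest and 5 lowest by rho for each (ribosomal, mitochondrial, predicted and small RNA genes left out), the 4 broadest genes of each Wnt list with those detected in fewer than 2 cells, and the 4 highest procollagen genes. Other names were chosen after values were seen. 1 of the 10 highest for Sfrp2 and some sequence are not reported here.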

Additional observations from a re-analysis of the deposited data

How the results depend on the processing

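Detection depended on the threshold. At 5 FPKM, Sfrp2 was detected in 4 cells and Sfrp4 in 8. With the added condition of 1% of the gene's highest FPKM, Sfrp2 was detected in 4 cells and Sfrp4 in 7. The relation of the pair kept its sign under the alternatives tried. Spearman's rho was 0.454 without the 2 cells farthest from the Sfrp2 median, 0.952 over the cells with both genes detected and 0.759 with values under 5 FPKM tied, and Pearson's r was 0.784. Without 1 cell at a time rho ranged from 0.566 to 0.757. The number of genes with a rho of 0.5 or more stayed within 1.5 times of its value under the filters and measures tried. It ran from 160 to 313 for Sfrp2 and from 165 to 278 for Sfrp4. The number of genes tested differed as well, from 3948 to 8021. As shares of the genes tested, the range was 3.25% to 5.2% for Sfrp2 and 3.45% to 5.54% for Sfrp4. Both shares were highest without cells 1, 11 and 14. For the 10 highest and 5 lowest genes of each member, which were picked for extreme values in these cells, 162 coefficients could be computed under alternatives: 160 kept their sign at 0.5 or past it, 2 kept it at a smaller size and 0 changed sign. Some of the 162 could not differ from the main value. Requiring detection in 8 or more or in 2 or more cells changes which genes enter, not the coefficient of a gene. The 160 thus include values that were fixed in advance. Genes under the detection filter in an alternative have no value there, and single genes named from lists were not rerun. No paired analysis was possible because all cells form 1 group. Read depth is unknown, so a value near 0 cannot be read as absence.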

Other observations

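Some genes of the Wnt and marker lists with few positive cells were seen in the same cells, and these were chosen after their values were seen. Dkk2, a secreted antagonist that binds the Lrp co-receptors, was detected in cell 6 (7.43) and cell 11 (3.31) and in no other cell. Kremen1, the membrane receptor for Dickkopf proteins, was highest in the same cells, at 4.81 in cell 6 and 4.35 in cell 11, with 1.21 in cell 2 and at most 0.80 elsewhere. In cell 3, Rspo3 stood at 6.45 and Sfrp1 at 6.18, while Rspo3 was at 0.31 or less in the other 14 cells.

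Csf1r, the receptor for a macrophage growth factor, was detected in 4 cells, of which 3 were high in Sfrp2: cell 2 (6.39), cell 1 (3.81) and cell 7 (3.35). Cell 13 had 1.78. Cd14, the other immune marker with a row, was at 0.20 or less in all 15 cells. Immune markers such as Ptprc and Cd68 were not analysed here, and the part of other cell types was not tested.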
